A study of Homo sapiens with 40 samples.

Results

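Genes that make, move, sense or remove adenosine were followed in irradiated human skin fibroblasts, namely ADA, ADK, NT5E, ADORA2B, SLC29A1 and AMPD3. They were 6 of the 18244 genes measured. A gene was represented by the probe sets (short groups of oligonucleotides on the array) that are annotated to it and to no other gene, which gave 18 of the 45284 such probe sets: 2 for ADA, 2 for ADK, 3 for NT5E, 1 for ADORA2B, 3 for SLC29A1 and 7 for AMPD3. The main probe set of each gene was chosen by the highest mean over all 40 arrays, and the others are given beside it. The 6 genes themselves were selected with earlier results of these arrays known, so their changes against sham are a description and no independent support for a response of the pathway.

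The cells were AG1522 (also written AG01522), a single strain of normal human skin fibroblasts held at full confluence, and the agent in every irradiated group was X-rays. The irradiated cells had 3 treatments: a priming dose of 5 cGy alone, a challenge dose of 2 Gy alone, and both in turn with 12 h between them (5 cGy + 2 Gy), the schedule used to look for a radioadaptive response, in which a small dose alters the reaction to a larger one. Each was sampled 3, 6, 12 and 24 h after its last dose with 3 arrays a group, and the reference was 4 arrays of sham-irradiated cells (0 Gy), which were handled the same way behind a lead mask and carry no time. All cells came from the same strain, so no difference between donors can be read here. The arrays are titled biological replicates without a statement of separate cultures, so p-values measure the spread between these arrays, which may be technical. Because sham was not sampled over time, dose and time in culture cannot be told apart in a comparison against sham, and all 12 such comparisons share the same 4 sham arrays.

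Adenosine arises outside cells when surface enzymes strip phosphates from released ATP, with NT5E (CD73) taking the last step from AMP, and inside cells from AMP and from S-adenosylhomocysteine. It acts through G protein-coupled receptors such as ADORA2B, crosses the membrane through equilibrative transporters such as SLC29A1 (ENT1), and is cleared either by ADA, which deaminates adenosine and deoxyadenosine, or by ADK, which phosphorylates adenosine back to AMP. ADA is best known from its inherited loss, which causes a severe combined immunodeficiency, and in connective tissue cells adenosine signalling is known for its part in wound repair and matrix production.

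The genes lie at chr20:44619522-44651699 (ADA), chr10:74151221-74709290 (ADK), chr6:85450083-85495784 (NT5E), chr17:15850362-15975746 (ADORA2B), chr6:44219615-44234142 (SLC29A1) and chr11:10450388-10507579 (AMPD3) in RefSeq on GRCh38.p14. The 250 bases before the start are printed for ADA and NT5E, the only members with a change that passed the test against sham. Capitals mark GC boxes (GGGCGG, or CCGCCC where the box is on the other strand), and both strands were searched. The ADA window is chr20:44651700-44651949 on the minus strand and the NT5E window is chr6:85449833-85450082 on the plus strand, each written 5′ to 3′ toward the gene.
ADA: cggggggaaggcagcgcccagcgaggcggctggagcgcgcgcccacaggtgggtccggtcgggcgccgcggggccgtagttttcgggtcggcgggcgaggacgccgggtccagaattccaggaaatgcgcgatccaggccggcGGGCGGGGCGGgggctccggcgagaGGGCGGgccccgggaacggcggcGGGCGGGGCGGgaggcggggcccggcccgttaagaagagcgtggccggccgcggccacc
NT5E: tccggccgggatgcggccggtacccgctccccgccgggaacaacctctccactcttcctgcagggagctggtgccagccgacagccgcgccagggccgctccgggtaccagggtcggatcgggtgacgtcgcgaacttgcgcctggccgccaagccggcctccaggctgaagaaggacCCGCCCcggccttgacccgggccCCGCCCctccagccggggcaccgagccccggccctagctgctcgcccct
The ADA window held 5 GC boxes, in which 2 pairs of matches overlapped by 1 base, and its GC content was 80%. The NT5E window held 2 GC boxes, both on the other strand, at a GC content of 75.2%. Of 35116 RefSeq windows of this length 42.6% held a GC box and the median GC content was 58%, so such a match is common. Among the 11 annotated starts of the 6 genes 8 had a GC box, 5 had CCAAT (32% of all windows), 3 had TGACG (21.2% of all windows, the NT5E window among the 3) and 0 had TATAAA (10.7% of all windows). A match of letters is a description of the window and not a bound site.

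Values are RMA log2 intensities (a robust multi-array average of background-corrected, quantile-normalized probes), so a difference of 1 is a doubling, and levels of different probe sets are not set against each other. The median of an array lay between 5.619 and 5.702. Sham replicate 1 stood apart from the other arrays of its group more than any other array did, with a root mean square deviation of 0.336 against at most 0.224 elsewhere, and 2 Gy 24 h replicate 1 had the largest gap between the 3′ and 5′ GAPDH probe sets (1.05, against 0.23 to 0.68 on the others), a sign of RNA integrity. Markers of cell types were read as levels, since no detection calls are held. On each array the mean of 10 fibroblast markers was between 12.46 and 13.02, that of 5 keratinocyte markers between 7.41 and 7.76, that of 4 melanocyte markers between 5.27 and 5.64, that of 6 endothelial markers between 5.26 and 5.75 and that of 6 leukocyte markers between 4.18 and 4.48. Single genes varied within a list, with averages of 3.18 (PTPRC), 3.16 (LYZ), 5.39 (CD3E) and 5.85 (NKG7) among the leukocyte markers and of 4.57 (KRT5), 10.37 (KRT10) and 12.09 (DSP) among the keratinocyte ones. These levels belong to different probe sets, so they describe the arrays and do not test the cell type. A gene was called changed in a comparison when its limma p-value, adjusted by Benjamini-Hochberg over all 18244 genes, was under 0.05.

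ADA, the deaminase, rose at 24 h after every treatment and was the member with the largest change. Its main probe set (11758337_s_at) read 9.75, 10.00 and 10.20 at 24 h after 5 cGy, 9.82, 10.14 and 10.28 at 24 h after 2 Gy, and 10.63, 10.41 and 10.45 at 24 h after 5 cGy + 2 Gy, against 8.30, 8.49, 9.12 and 9.15 in sham. All 9 irradiated arrays at 24 h were above all 4 sham arrays, and sham itself was split into a lower and a higher pair. The share of all genes whose groups separate in this way was not counted, so here and below a separation is a description only. ADA was 2.32-fold higher than sham at 24 h after 5 cGy (log2 fold change 1.22 ± 0.16 SE, limma adjusted p = 3.29e-05), 2.48-fold higher after 2 Gy (1.31 ± 0.16, adjusted p = 1.28e-06) and 3.31-fold higher after 5 cGy + 2 Gy (1.73 ± 0.16, adjusted p = 3.84e-09). By p-value it was the 3rd, 6th and 2nd strongest rise among all genes in these comparisons, in which 3.11%, 6.05% and 9.92% of the genes tested were called. In a lysate of many cells, a change in RNA per cell and a change in the number of cells that carry the transcript cannot be told apart.

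**Figure D1:**
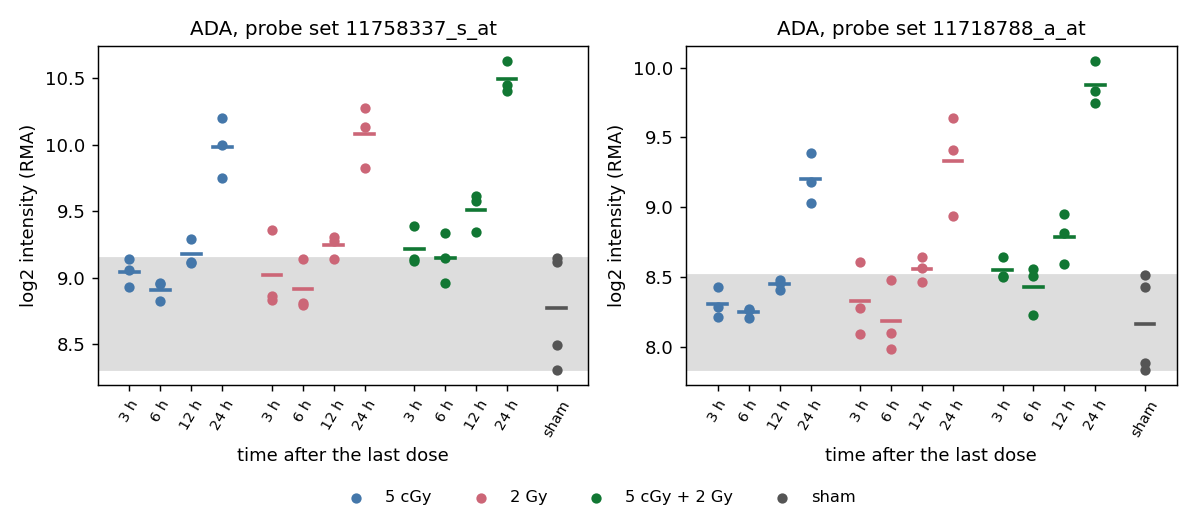
Log2 intensity of the main (left) and the other (right) ADA probe set on each array by time after the last dose, with bars for group means and a grey band for the range of the 4 sham arrays, which stand at the far right. At 24 h every irradiated array lies above the band on both probe sets, and the 5 cGy + 2 Gy arrays also do so at 12 h.

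ADA was not called at 3 or 6 h. At 3 h the probe set read 8.93, 9.05 and 9.14 after 5 cGy, 8.86, 8.83 and 9.36 after 2 Gy, and 9.13, 9.14 and 9.39 after 5 cGy + 2 Gy. At 6 h it read 8.82, 8.96 and 8.95 after 5 cGy, 8.79, 8.81 and 9.14 after 2 Gy, and 8.96, 9.15 and 9.34 after 5 cGy + 2 Gy. These arrays overlapped the sham range, and the log2 fold changes against sham lay between 0.14 and 0.45 with 0 calls for ADA. In the 5 cGy comparisons 0% of genes were called at 3 h and 0% at 6 h, with 643 and 1084 genes at an unadjusted limma p under 0.05, while the share called was 0.132% at 3 h and 0.192% at 6 h after 2 Gy, and 0.132% at 3 h and 0.378% at 6 h after 5 cGy + 2 Gy.

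At 12 h ADA was called in 1 of the 3 treatments. It read 9.11, 9.12 and 9.29 after 5 cGy, 9.14, 9.31 and 9.28 after 2 Gy, and 9.58, 9.34 and 9.61 after 5 cGy + 2 Gy. Only the last group was above all 4 sham arrays. Its log2 fold change against sham was 0.74 ± 0.16 (1.67-fold, limma adjusted p = 0.0116, with 1.4% of genes called), and the 5 cGy and 2 Gy values of 0.41 (adjusted p = 0.362, 0.329% of genes called) and 0.48 (adjusted p = 0.216, 0.669% of genes called) were not called. The treatments were not told apart at this time, with 5 cGy + 2 Gy against 2 Gy at 0.27 (unadjusted p = 0.126, adjusted p = 1) and 2 Gy against 5 cGy at 0.07 (unadjusted p = 0.692). The 12 h call was lost without sham replicate 2 (adjusted p = 0.0742), without 5 cGy + 2 Gy 12 h replicate 1 (0.0615) or without replicate 3 (0.0943), and with sham replicates 1 and 2 both left out, an alternative chosen after seeing the values, the log2 fold change was 0.38 (adjusted p = 0.211).

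The 24 h calls for ADA held when any single array was left out, with log2 fold changes of 1.06 to 1.34 after 5 cGy, 1.16 to 1.44 after 2 Gy and 1.57 to 1.85 after 5 cGy + 2 Gy. Without sham replicates 1 and 2 they were 0.85, 0.94 and 1.36, all called. The other ADA probe set (11718788_a_at) showed the same 4 calls. It read 9.03, 9.18 and 9.39 at 24 h after 5 cGy, 8.93, 9.41 and 9.64 after 2 Gy, and 10.04, 9.83 and 9.74 after 5 cGy + 2 Gy, against 7.83, 7.88, 8.43 and 8.52 in sham. The log2 fold changes on it were 1.04, 1.16 and 1.71 at 24 h, and 0.62 at 12 h after 5 cGy + 2 Gy. Over the 12 comparisons together, an F-test gave ADA an adjusted p of 1.24e-08 (11.2% of genes called).

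Since sham carries no time, the change of ADA with time was also read within each treatment. From the arrays just given, the 24 h level exceeded the 3 h level by 0.94 after 5 cGy, 1.06 after 2 Gy and 1.28 after 5 cGy + 2 Gy on the log2 scale (SE 0.17 each, limma adjusted p = 0.00167, 0.000145 and 1.09e-05). The share of genes called in these 3 comparisons was 3.11%, 11.6% and 4.99%. The 3 changes with time were not told apart: 2 Gy exceeded 5 cGy by 0.12 (95% interval −0.37 to 0.61) and 5 cGy + 2 Gy exceeded 2 Gy by 0.21 (−0.28 to 0.71). By limma 0% of genes were called in either of these differences, where 1678 and 505 genes had an unadjusted p under 0.05. The comparisons within a treatment do not use the sham arrays, but time after the dose and time in culture cannot be told apart in them.

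Priming was compared at matched times after the challenge dose. At each of these times the primed cells were 12 h further from their first dose, so priming and this extra time cannot be told apart. ADA was higher in 5 cGy + 2 Gy cells than in 2 Gy cells by 0.20, 0.23, 0.27 and 0.42 at 3, 6, 12 and 24 h on the log2 scale. At 24 h the 3 primed arrays (10.63, 10.41 and 10.45) lay above the 3 unprimed ones (9.82, 10.14 and 10.28), with a 95% interval of 0.07 to 0.76 and an unadjusted p of 0.0211 in limma. The average over the 4 times was 0.28 ± 0.09 (95% interval 0.11 to 0.45, unadjusted p = 0.00256). Neither passed the adjustment over all genes (adjusted p = 1 and 0.815), and 0% of genes were called at 3 h, 0% at 6 h, 0% at 12 h, 0% at 24 h and 0% in the average, with 952, 657, 203, 354 and 932 genes at an unadjusted p under 0.05. The average was called in 2 of its 36 alternatives, among them a replicate block (limma adjusted p = 0.0466), a pairing that the labels do not state. An F-test over the 4 times gave ADA an unadjusted p of 0.0371 (adjusted p = 1, 0% of genes called).

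The single doses were not told apart in ADA. The difference of 2 Gy and 5 cGy was −0.02, 0.00, 0.07 and 0.10 on the log2 scale at 3, 6, 12 and 24 h, and the 24 h arrays of the 2 groups overlapped. The interval at 24 h, −0.25 to 0.44, leaves room for a difference in either direction, and its sign turned when 2 Gy replicate 3 or 5 cGy replicate 1 was left out. At these times 0.0274%, 0.0274%, 0.011% and 0.175% of genes were called (0.208% by an F-test over the 4 times).

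At 12 h after the challenge dose the primed cells were 24 h past their priming dose, so 5 cGy at 24 h is their match in time since priming. ADA was lower in the 5 cGy + 2 Gy arrays at 12 h (9.58, 9.34 and 9.61) than in the 5 cGy arrays at 24 h (9.75, 10.00 and 10.20), and the groups did not overlap. The log2 difference was −0.47 ± 0.17 (unadjusted p = 0.00937, adjusted p = 0.725), a comparison added after seeing the data in which 0% of genes were called and 1004 had an unadjusted p under 0.05 in limma. Against the sum of the single-dose changes (2 Gy at 12 h plus 5 cGy at 24 h, each against sham), 5 cGy + 2 Gy at 12 h fell short by 0.95 ± 0.23 on the log2 scale (95% interval −1.43 to −0.47, unadjusted p = 0.000303). This too missed the adjustment over all genes (adjusted p = 0.395, 0.011% of genes called), and without sham replicates 1 and 2 the shortfall was −0.58 (adjusted p = 0.623). Because sham carries no time, any change with time in culture enters both single-dose terms of the sum. The shortfall can therefore not be told apart from such a change, and nothing is read from it about how the doses act together.

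Ordered by mean level, ADA was highest in 5 cGy + 2 Gy at 24 h (10.49 ± 0.12 SD, n = 3), followed by 2 Gy at 24 h (10.08 ± 0.23), 5 cGy at 24 h (9.98 ± 0.22) and 5 cGy + 2 Gy at 12 h (9.51 ± 0.15), with sham the lowest of the 13 groups (8.77 ± 0.43, n = 4). Of these neighbours, 2 Gy and 5 cGy at 24 h overlapped in range. From 2 Gy at 12 h (9.24 ± 0.09) downward every group overlapped its neighbour. As a description over the 13 group means, with no p, the 5 genes whose pattern was most like that of ADA among 4552 genes with a range over 0.5 were CCN5 (a secreted matricellular protein, Pearson r = 0.99), SERPINF1 (pigment epithelium-derived factor, 0.99), TMEM119 (0.99), HCFC1R1 (0.98) and C1RL (0.98). CCN5 had log2 fold changes of 1.57, 1.59 and 2.19 at 24 h after 5 cGy, after 2 Gy and after 5 cGy + 2 Gy. These points share their arrays and their normalization.

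NT5E, the surface enzyme that makes adenosine from AMP, was lower than sham at 24 h after every treatment. Its main probe set (11755207_a_at) read 10.12, 10.04 and 9.98 at 24 h after 5 cGy, 10.20, 10.22 and 10.04 after 2 Gy, and 10.11, 10.04 and 10.04 after 5 cGy + 2 Gy, against 10.79, 10.80, 10.32 and 10.41 in sham. All 9 irradiated arrays at 24 h were below all 4 sham arrays. The log2 fold change was −0.53 after 5 cGy (1.45-fold lower, limma adjusted p = 0.00934), −0.43 after 2 Gy (1.35-fold lower, 0.0259) and −0.52 after 5 cGy + 2 Gy (1.43-fold lower, 0.00389), with an SE of 0.12 each. The share of genes called in these comparisons is that given for ADA.

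Of the 3 NT5E calls, 2 turned on single arrays. After 5 cGy the call was lost without sham replicate 2 (adjusted p = 0.0599) or 5 cGy 24 h replicate 3 (0.0797), and after 2 Gy without sham replicate 1 (0.0626), sham replicate 2 (0.126), 2 Gy 24 h replicate 1 (0.0574) or 2 Gy 24 h replicate 3 (0.173). After 5 cGy + 2 Gy it held without any single array (−0.60 to −0.44). Without both sham replicates 1 and 2, the sham arrays with the highest NT5E and the lowest ADA, the log2 fold changes were −0.32, −0.21 and −0.30 and 0 of the 3 were called (adjusted p = 0.197, 0.339 and 0.14).

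**Figure D2:**
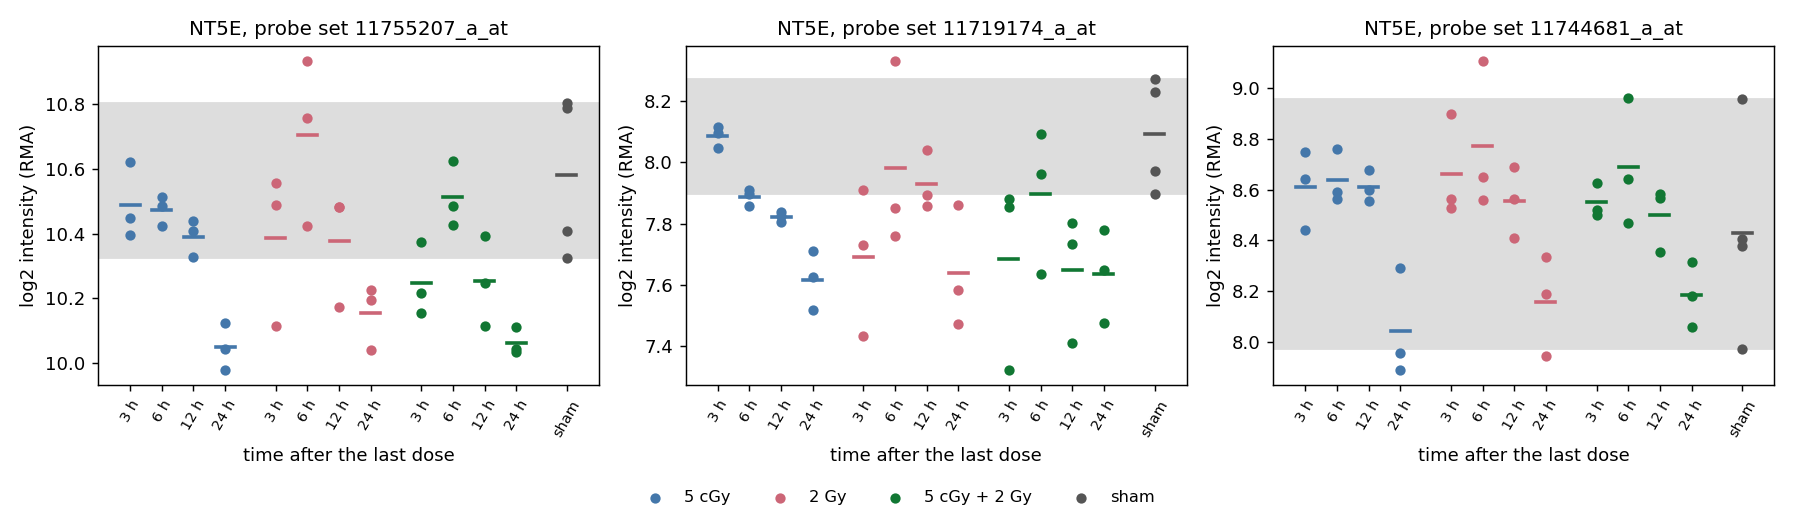
Log2 intensity of the 3 NT5E probe sets on each array by time after the last dose, with bars for group means and a grey band for the range of the 4 sham arrays at the far right. On the main probe set (left) and the second one all 24 h arrays lie below the band, and on the third one most 24 h arrays lie within it.

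At the earlier times NT5E was not called. Its log2 fold changes against sham lay between −0.33 and 0.12, and the highest group mean was that of 2 Gy at 6 h (10.71, with arrays at 10.76, 10.93 and 10.42). The lowest of the early values was in 5 cGy + 2 Gy cells at 3 h (−0.33, unadjusted p = 0.00905, adjusted p = 0.579) and was matched at 12 h (−0.33, adjusted p = 0.198). Within a treatment, the 24 h level was below the 3 h level by 0.44 (limma adjusted p = 0.0516) after 5 cGy. The log2 differences were −0.23 after 2 Gy (adjusted p = 0.231) and −0.19 after 5 cGy + 2 Gy (0.488), so the fall with time was called in no treatment. The 5 cGy change lay near the threshold and was called in 8 of its 18 alternatives. Against 2 Gy cells, 5 cGy + 2 Gy cells averaged −0.14 over the 4 times (unadjusted p = 0.0403, adjusted p = 0.968).

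The NT5E probe sets were not alike in size. On 11719174_a_at the 24 h arrays read 7.52, 7.71 and 7.62 after 5 cGy, 7.47, 7.86 and 7.58 after 2 Gy, and 7.48, 7.65 and 7.78 after 5 cGy + 2 Gy, against 7.90, 8.27, 7.97 and 8.23 in sham, again with no overlap. Its log2 fold changes were −0.48, −0.45 and −0.46, of which only that after 5 cGy + 2 Gy was called (adjusted p = 0.0412, over all probe sets tested). On 11744681_a_at they were −0.38, −0.27 and −0.24 (adjusted p = 0.226, 0.409 and 0.43), and sham spread from 7.97 to 8.96. Over the 12 comparisons together the F-test on the main probe set gave an adjusted p of 0.00301. The 5 genes most like NT5E over the 13 group means were BIRC2 (an inhibitor of apoptosis protein, r = 0.97), ENAH (an actin regulator, 0.96), ENC1 (0.95), PDCD1LG2 (0.95) and EXOSC9 (an exosome subunit, 0.95). BIRC2 had log2 fold changes of −0.81, −0.58 and −0.82 at 24 h after 5 cGy, after 2 Gy and after 5 cGy + 2 Gy.

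ADORA2B, the low-affinity A2B receptor that raises cyclic AMP, had a single probe set. At 24 h it read 7.87, 8.25 and 7.80 after 5 cGy, 7.88, 8.02 and 7.89 after 2 Gy, and 7.99, 8.04 and 7.78 after 5 cGy + 2 Gy, against 7.43, 7.74, 7.53 and 7.59 in sham. All 9 irradiated arrays were above all 4 sham arrays, by small margins, a description without the share of all genes that do so. The log2 fold changes of 0.40, 0.36 and 0.37 had 95% intervals of 0.06 to 0.75, 0.01 to 0.71 and 0.02 to 0.71, and did not pass the adjustment over all genes (limma adjusted p = 0.219, 0.241 and 0.195). At 3, 6 and 12 h the receptor lay between −0.07 and 0.19 of sham.

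ADK, the kinase that competes with ADA for adenosine, was not called in any of the 12 comparisons. Its log2 fold changes on the main probe set (11746331_a_at) lay between −0.15 and 0.31, and the highest, at 6 h after 2 Gy, came from arrays at 9.63, 9.82 and 9.30 against 9.73, 9.24, 9.03 and 9.07 in sham (unadjusted p = 0.0318, adjusted p = 0.738). At 24 h its arrays lay between 9.14 and 9.50, within the sham range. Sham replicate 1 was the highest sham array for ADK here and also on the other probe set, where sham read 7.01, 6.12, 5.71 and 5.68.

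SLC29A1, the transporter, and AMPD3, which deaminates AMP to IMP before adenosine can form, were not called either. SLC29A1 (11717162_a_at) read 6.81, 6.95 and 7.10 at 24 h after 5 cGy, 7.02, 6.71 and 6.94 after 2 Gy, and 6.86, 6.77 and 7.10 after 5 cGy + 2 Gy, against 5.84, 6.85, 6.67 and 7.10 in sham. The irradiated arrays reached no higher than 7.10, the level of the highest sham array, and the log2 fold changes of 0.34, 0.28 and 0.30 (adjusted p = 0.395, 0.47 and 0.379) were set against a sham mean that held the low sham replicate 1. The 2 other SLC29A1 probe sets went the other way, with group means below sham at 24 h after every treatment. In the same order of treatments they were 4.08, 3.97 and 3.99 against 4.15 (11760895_a_at). On 11760896_x_at they were 6.48, 6.35 and 6.52 against 6.58. AMPD3 (11758009_s_at) read 8.06, 7.94 and 7.87 at 24 h after 5 cGy, 8.38, 7.96 and 8.11 after 2 Gy, and 8.09, 7.99 and 8.09 after 5 cGy + 2 Gy, against 7.51, 8.33, 8.30 and 8.51 in sham, and its log2 fold changes over the 12 comparisons lay between −0.21 and 0.27. Of its 6 other probe sets 5 were below sham at 24 h after all 3 treatments, the lowest being 11749016_a_at at −0.52, −0.46 and −0.44 (adjusted p = 0.226, 0.254 and 0.239). None of the other probe sets of ADK, SLC29A1 and AMPD3 was called by limma, with an unadjusted p under 0.05 in 0 of 12, 3 of 24 and 5 of 72 pairs of a probe set and a comparison. Among the main probe sets of all 18244 genes, 643 to 4106 had such a p in a comparison against sham. The share over all probe sets was not counted, so nothing is read from these counts.

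Of the 72 pairs of a member and a comparison against sham, 7 were called: 4 rises of ADA and 3 falls of NT5E, 6 of the 7 at 24 h. Those 6 were 2 of the 6 members at each treatment, against a background of 3.11%, 6.05% and 9.92% of genes, from which nothing is read because the members were selected with such results known. Over the 13 group means of the main probe sets, the levels of ADA and NT5E had a Pearson r of −0.88, those of ADA and ADORA2B 0.89, those of ADA and SLC29A1 0.93 and those of ADORA2B and SLC29A1 0.95, as descriptions over points that share their arrays. The other SLC29A1 probe sets, which were below sham at 24 h, are not part of these values.

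**Figure D3:**
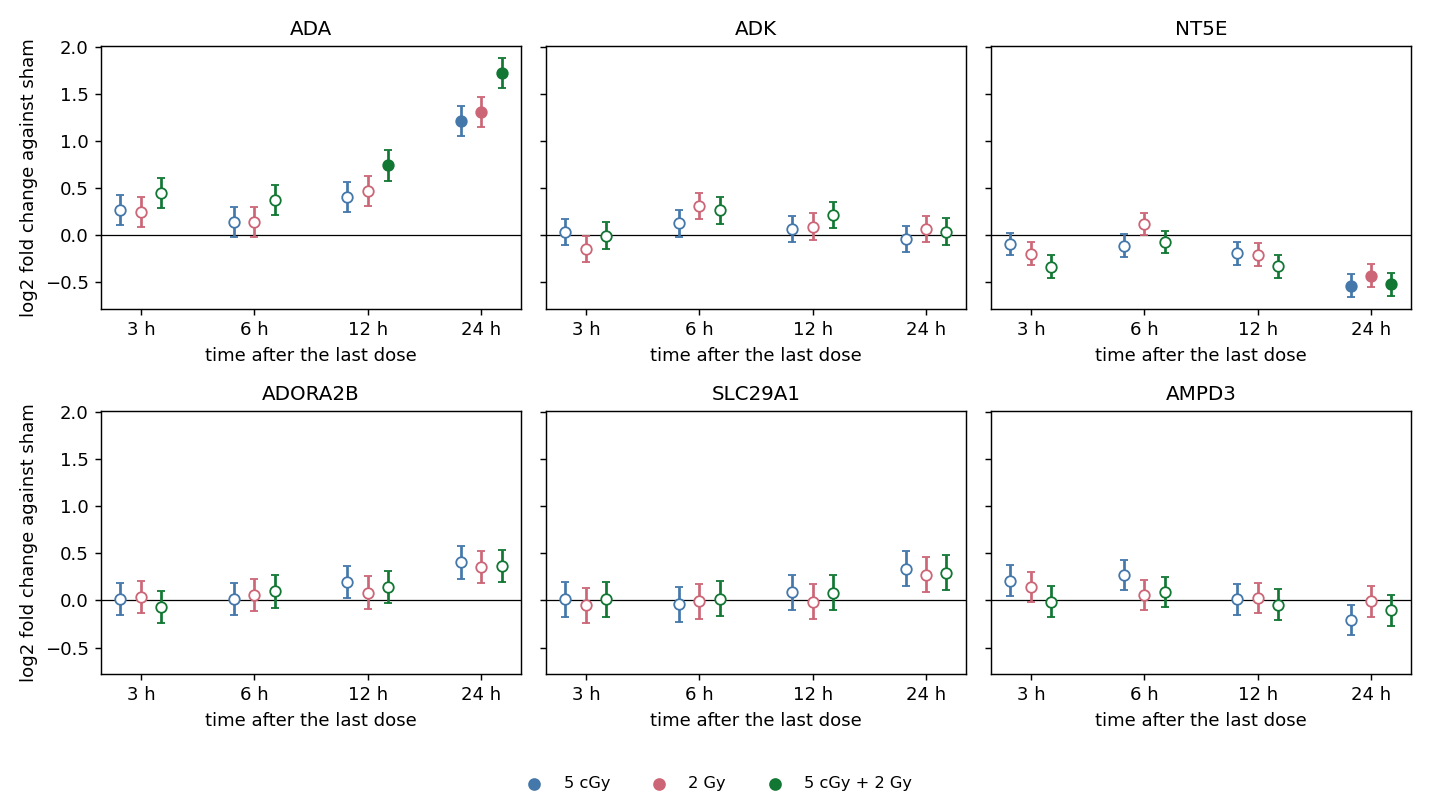
Log2 fold change against sham of the main probe set of each member (vertical axis, shared by the panels) by time after the last dose and treatment. Bars are standard errors, and filled points were called at an adjusted p under 0.05 over all genes while unfilled points were not. ADA climbs to 1.73, NT5E falls to −0.53, and the other 4 members are unfilled at every time.

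The rest of the pathway was read from 10 lists by role, with 67 of 74 genes measured. In the 12 comparisons against sham, 10 of the 67 genes were called in 17 pairs of a gene and a comparison. At 24 h the lists held 0 rises and 1 fall after 5 cGy, 2 rises and 2 falls after 2 Gy, and 3 rises and 6 falls after 5 cGy + 2 Gy, and their median log2 fold changes of −0.01, −0.03 and −0.02 stood beside 0.03, 0.02 and 0.01 over all genes. The called share of the list genes was 1.49%, 5.97% and 13.4%, beside 3.11%, 6.05% and 9.92% of all genes. Without 1 array the 24 h counts of 1, 4 and 9 list genes moved to between 0 (sham replicate 2 left out) and 3 (sham replicate 1) after 5 cGy, 0 (2 Gy 24 h replicate 3) and 5 (sham replicate 1) after 2 Gy, and 5 (5 cGy + 2 Gy 24 h replicate 1) and 9 after 5 cGy + 2 Gy. None of the other adenosine receptors, nucleoside transporters, deaminases, nucleotidases or genes of the adenosylhomocysteine and methylthioadenosine list was called against sham by limma.

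PNP, which splits the inosine that ADA makes, was lower at 24 h after each treatment. It read 9.33, 9.39 and 9.25 after 5 cGy, 9.40, 9.37 and 9.29 after 2 Gy, and 9.28, 9.48 and 9.22 after 5 cGy + 2 Gy, against 9.76, 10.69, 10.02 and 10.08 in sham. The groups did not overlap, and the log2 fold changes were −0.81 (adjusted p = 0.0259), −0.78 (0.0201) and −0.81 (0.0106). Without sham replicate 2, the highest sham array, they were −0.63, −0.60 and −0.63 and all calls were lost (adjusted p = 0.158, 0.122 and 0.0714). The 5 cGy call was also lost without any 1 of its own 24 h arrays (adjusted p up to 0.147), likewise the 2 Gy call (up to 0.103), and the 5 cGy + 2 Gy call without its replicate 3 (0.0572).

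DPP4 (CD26), the surface peptidase that binds ADA on human cells, was called higher at 24 h after 2 Gy and after 5 cGy + 2 Gy. It read 8.60, 8.44 and 9.21 at 24 h after 5 cGy, 9.08, 8.74 and 9.39 after 2 Gy, and 9.33, 9.22 and 9.56 after 5 cGy + 2 Gy, against 8.10, 7.31, 8.05 and 8.19 in sham. All 9 arrays were above sham. The log2 fold changes were 0.84 (adjusted p = 0.0807, not called), 1.16 (0.00643) and 1.46 (0.000328), and without sham replicate 2 the 2 calls held at 0.96 and 1.26. The 5 cGy value was called in 2 of its 19 alternatives (with the mean of probe sets it was 0.49), and the missed call does not show that it differs from the other treatments. Replicate 2 was the lowest DPP4 array in all 13 groups. The 2 Gy call was lost without 2 Gy 24 h replicate 3 (1.00 on the log2 scale, adjusted p = 0.0769).

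GART, a multifunctional enzyme of purine synthesis, was the list gene called at 12 h. It read 8.56, 8.37 and 8.60 after 5 cGy, 8.42, 8.54 and 8.49 after 2 Gy, and 8.41, 8.60 and 8.53 after 5 cGy + 2 Gy, against 8.74, 9.05, 9.02 and 8.94 in sham. The log2 fold changes were −0.42 (adjusted p = 0.0392), −0.45 (0.0136) and −0.42 (0.0158), and all 3 were lost without sham replicate 2 (adjusted p = 0.149, 0.0725 and 0.0818). The 5 cGy call was also lost without sham replicate 3 (0.0805) or any 1 of its own arrays (up to 0.222), the 2 Gy call without any 1 of its own arrays (up to 0.0912), and the 5 cGy + 2 Gy call without its replicate 1 (0.124) or 3 (0.08). At 24 h the group means were back within the sham range.

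The remaining list calls were all at 24 h after 2 Gy or 5 cGy + 2 Gy. GJA1 (connexin 43, whose hemichannels pass ATP) read 12.60, 12.39 and 12.47 after 5 cGy + 2 Gy against 12.26, 11.67, 11.48 and 11.41 in sham, with log2 fold changes of 0.60 after 2 Gy (adjusted p = 0.0427) and 0.78 after 5 cGy + 2 Gy (0.00428). The 2 Gy call was lost without any 1 of its own arrays or of sham replicates 2, 3 and 4 (adjusted p up to 0.161). With the mean of its probe sets GJA1 was at 0.21 after 2 Gy (not called) and 0.33 after 5 cGy + 2 Gy (called). Of the adenylate kinases, the cytosolic AK1 was at 0.38 (adjusted p = 0.0169) and the mitochondrial AK4 at −1.50 (0.0401) after 5 cGy + 2 Gy. AK4 arrays lay between 6.60 and 7.16 in those cells, against 7.45, 7.69, 9.51 and 9.01 in sham, where the spread was wide. The AK1 call was lost without sham replicate 1 (adjusted p = 0.0757) or 5 cGy + 2 Gy 24 h replicate 1 (0.0972), and the AK4 call without sham replicate 3 (−1.13, 0.153) or 4 (0.098) or any 1 of the 5 cGy + 2 Gy arrays (up to 0.157). The other 4 genes, named after their values were seen, were lower after 5 cGy + 2 Gy: HPRT1 (hypoxanthine salvage, −0.49), DCK (deoxynucleoside kinase, −0.77), PRPS2 (which makes phosphoribosyl pyrophosphate, −0.37) and PAICS (purine synthesis, −0.47). DCK was also lower after 2 Gy (−0.56, adjusted p = 0.0291). After 5 cGy + 2 Gy, HPRT1 and DCK kept their calls without any 1 array. PAICS lost its call without sham replicate 1 or 2 or 5 cGy + 2 Gy replicate 1 or 3 (adjusted p up to 0.163), PRPS2 without sham replicate 1 or 2 or any 1 of the 5 cGy + 2 Gy arrays (up to 0.201), and DCK after 2 Gy without sham replicate 1 or 2 or 2 Gy replicate 2 or 3 (up to 0.162). After 5 cGy the 24 h means lay on the same side of sham without a call. They were 12.21 against 11.70 (GJA1), 9.06 against 8.82 (AK1) and 7.37 against 8.42 (AK4). The others were 9.95 against 10.24 (HPRT1), 8.11 against 8.62 (DCK), 8.70 against 8.82 (PRPS2) and 9.04 against 9.42 (PAICS). The missed calls do not show that 5 cGy differs from the other treatments.

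**Figure D4:**
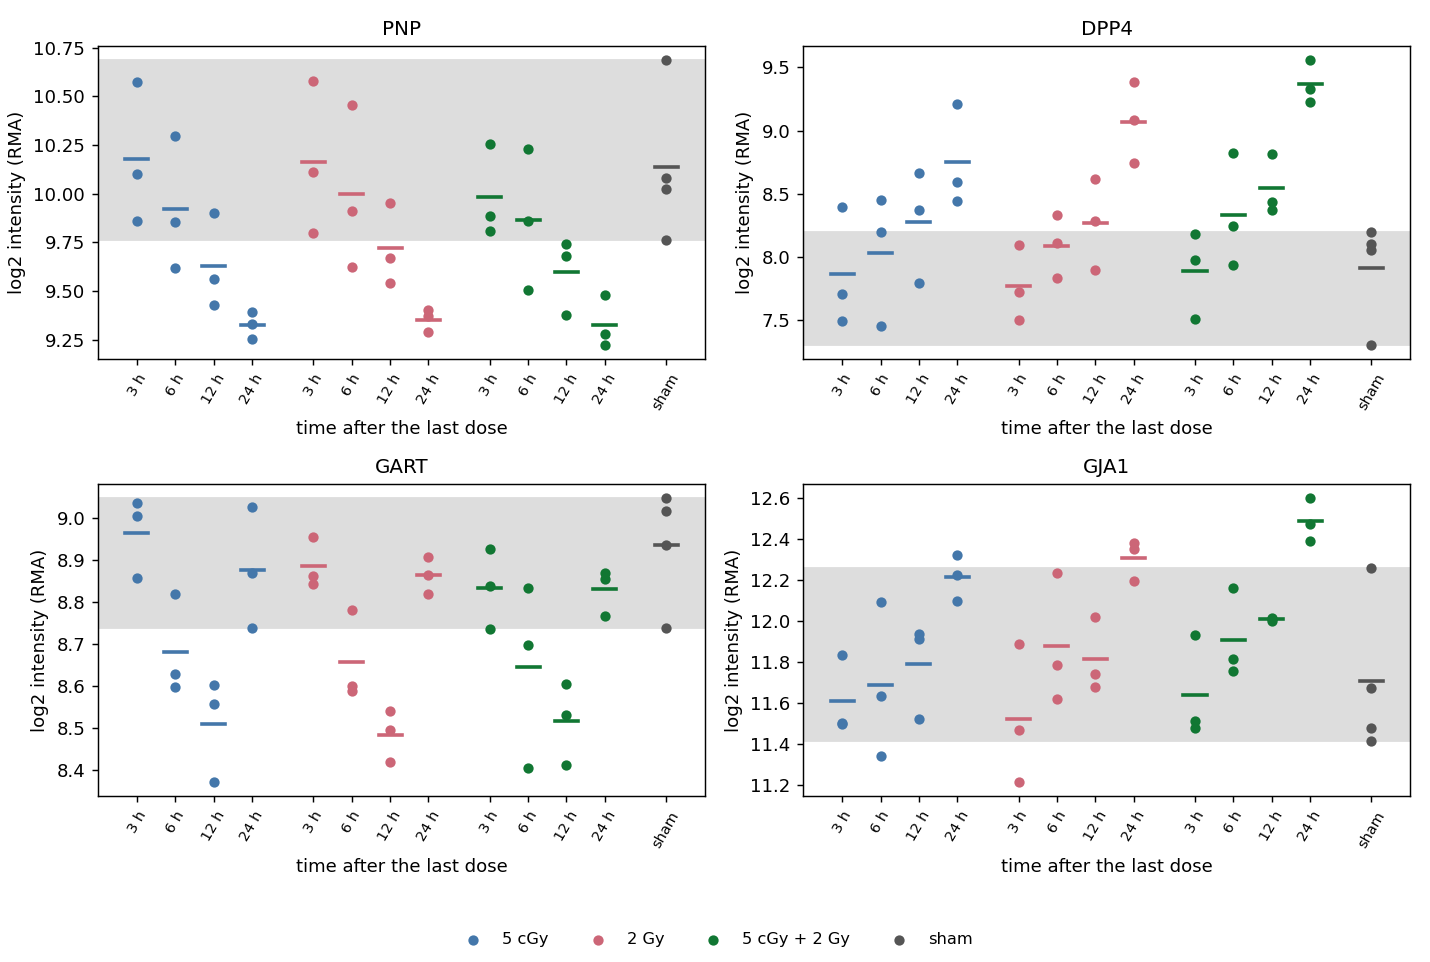
Log2 intensity of PNP, DPP4, GART and GJA1 on each array by time after the last dose, with bars for group means and a grey band for the range of the 4 sham arrays at the far right. PNP lies below and DPP4 above the sham band at 24 h, and GART lies below it at 12 h and not at 24 h.

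Genes of the cell cycle and of the p53 response were read in the same 24 h arrays, and some of them are given here. RRM2, a ribonucleotide reductase subunit needed for DNA synthesis, had log2 fold changes against sham of −1.50, −3.52 and −4.25 after 5 cGy, after 2 Gy and after 5 cGy + 2 Gy, all called. MKI67, a proliferation marker, had −0.03 (not called, limma adjusted p = 0.979), −1.81 and −2.35 (both called). CDKN1A, the p53 target that halts the cycle, had 0.14 (not called, adjusted p = 0.531), 0.64 and 0.61 (both called). The mean of the 6 leukocyte markers at 24 h was between 4.29 and 4.48 after 5 cGy, against 4.24 to 4.31 in sham. It was between 4.18 and 4.29 after 2 Gy and between 4.24 and 4.28 after 5 cGy + 2 Gy. The part of these in the changes of ADA and NT5E was not tested.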

How the data were processed

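Total RNA of 40 samples was hybridised to PrimeView arrays. Per the labels, the authors processed the arrays with RMA (version not given in the sources used here), and the deposited table holds log2 values of 49495 vendor probe sets with 0 missing values. The study's methods name a gene-level custom chip definition and an interquartile range filter, and neither was seen in the deposited table. An array's precision is limited by the number of arrays, since the table holds no counts. Probe sets with 1 gene symbol were kept (1333 had several and 2878 none), and 45214 of 45284 matched RefSeq names. Each gene took its probe set of highest mean. All 13 group means were fitted in 1 model over 18244 genes with limma 3.58.1 (lmFit, eBayes) in R 4.3.3, with 28 comparisons and Benjamini-Hochberg adjustment within each, and was tested on simulated data. Other probe sets were tested over all 45284. Genes set to be named were the 6 members, list genes called in 3 or more comparisons against sham or with the smallest p of a list (up to 4), the 5 genes most like ADA and NT5E, and the context genes. HPRT1, DCK, PRPS2 and PAICS were named beyond this rule. List genes without a call against sham, apart from ADORA3, are not printed. Neither are the context genes MDM2, BBC3, SESN1, CDC6 and TOP2A. The members and lists were chosen with earlier results of these data known. Alternatives were a replicate block, cyclic loess, all probe sets, the mean of probe sets, 2 filters, array weights, a trended prior, a GAPDH covariate, the cut-off stated in the methods, a fit on only the arrays compared, and leaving out each array.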

Additional observations from a re-analysis of the deposited data

Results flagged for a closer look

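One of 60 sets of 4 sham values had an array far from the others. For DPP4 the gap of sham replicate 2 (7.31) to the nearest sham array (8.05) was 0.841 of the whole sham range, over the 95% critical value of Dixon's test for 4 samples. That value was not adjusted for the 60 sets, among which some flags can arise by chance, so the flag is a description only. Replicate 2 was the lowest DPP4 array in all 13 groups, so the low value goes with the replicate number. Without sham replicate 2 the log2 fold changes of DPP4 at 24 h were 0.96 after 2 Gy and 1.26 after 5 cGy + 2 Gy, and both were called.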

How the results depend on the processing

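The 24 h rises of ADA were called under all alternatives but 1: fitted on only the arrays compared, ADA after 5 cGy kept 1.22 with an adjusted p of 0.127. That fit, which has fewer residual degrees of freedom, also lost ADA at 12 h after 5 cGy + 2 Gy (0.74, adjusted p = 0.503) and NT5E at 24 h (−0.53, −0.43 and −0.52 after 5 cGy, after 2 Gy and after 5 cGy + 2 Gy, adjusted p = 0.274, 0.278 and 0.11). Without sham replicates 1 and 2 (chosen after seeing the data) ADA at 12 h was 0.38 and NT5E at 24 h was −0.32, −0.21 and −0.30, none called. For ADA in 2 Gy against 5 cGy at 24 h the log2 difference was −0.0199 without 5 cGy 24 h replicate 1. Array weights gave NT5E after 2 Gy −0.26 (adjusted p = 0.07). Leaving out 1 array gave 0.59 to 0.87 for ADA at 12 h after 5 cGy + 2 Gy, −0.62 to −0.46 and −0.51 to −0.35 for NT5E at 24 h after 5 cGy and 2 Gy, and −0.02 to 0.22 for ADA in 2 Gy against 5 cGy at 24 h. With the cut-off that the methods state (1.2-fold and an unadjusted p below 0.05) the 24 h difference of ADA between 5 cGy + 2 Gy and 2 Gy (0.42) passed. The 7 called pairs of a member and a comparison against sham became 17 at that cut-off, 2 when fitted to the compared arrays alone, 3 with sham replicates 1 and 2 left out, and 4 to 7 without 1 array. By an unadjusted limma p under 0.05 alone, 643 to 4106 of the 18244 genes passed in a comparison against sham. The shares of all genes under these settings were not counted, so nothing is read from the changed counts of pairs.

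With a replicate block 18 pairs were called. The numbers are not stated to mark a shared culture or day, and 186 of 234 same-numbered pairs of arrays correlated above 0.1 in their deviations from group means, but 37 of 39 arrays correlated best with their own number, a hint from the data and not the design. Under the block the average priming difference of ADA had an adjusted p of 0.0466, its shortfall from the sum at 12 h was −1.08 (0.000793), and ADORA2B at 24 h passed after 5 cGy (0.0337) and 5 cGy + 2 Gy (0.0418). Replicate 4 exists only in sham, so the block also takes that array out of every comparison that uses sham. Leaving out sham replicate 4 without a block gave the same shortfall of ADA (−1.08), so the blocked values are not an effect of pairing alone. The list genes called at 24 h (1, 4 and 9 after 5 cGy, after 2 Gy and after 5 cGy + 2 Gy) became 13, 15 and 17 with the block, 11, 15 and 16 at the stated cut-off, 6, 10 and 16 with array weights, and 0, 0 and 1 on only the arrays compared. By an unadjusted limma p under 0.05 alone, 2867, 3450 and 4106 of the 18244 genes passed in these comparisons. The shares of all genes under the alternatives were not counted, so nothing is read from these counts or from the 18 pairs. Cyclic loess moved the median of all genes by at most 0.032. Over all fold changes examined, 591 alternatives kept the call and the direction, 105 lost the call, 21 gained one and 2 turned the sign. The causes were not tested. With 3 or 4 arrays a group, differences well above the SE of ADA (0.16) are not resolved either. Its 0.48 at 12 h after 2 Gy, for one, was not called (limma adjusted p = 0.216).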

Other observations

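Outside the comparisons against sham, the lists held 12 calls between 24 h and 3 h, with 0 rises and 2 falls after 5 cGy (2.99% of the list genes, beside 3.11% of all genes), 4 and 4 after 2 Gy (11.9%, beside 11.6%), and 2 and 0 after 5 cGy + 2 Gy (2.99%, beside 4.99%). Of the 2 after 5 cGy, PNP had a log2 difference of −0.85 (limma adjusted p = 0.0306). ADORA3, an adenosine receptor that lowers cyclic AMP, was the other (−0.51, limma adjusted p = 0.0262). Its level was low, with means of 4.65 at 3 h and 4.14 at 24 h after 5 cGy and 4.27 in sham. The array medians were 5.619 to 5.702, and without detection calls it is open whether the receptor transcript was present. Other genes of the same 24 h arrays are given as values: GDF15, a stress-induced p53 target, had log2 fold changes against sham of 1.09, 1.72 and 2.04 after 5 cGy, after 2 Gy and after 5 cGy + 2 Gy, and CCNE2, the S phase cyclin E2, had −1.66, −1.79 and −2.09.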
